A study of Mus musculus with 12 samples.

Results

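The 12 RNA-seq libraries of this study came from Neuro-2a cells, an adherent mouse neuroblastoma line, and the labels number the biological replicates of every transfection from 1 to 4. The comparison described here sets the 6 libraries of replicates 3 and 4 against the 6 libraries of replicates 1 and 2, taken by the number in the sample title, with the transfection as a covariate. Each set held 2 scramble libraries, 2 Rbmx knockdown libraries and 2 Rbmxl1 knockdown libraries. Cells of every group were transfected with 1 µg of the GFP plasmid pCAGGs-linkB-IRES-GFP together with 3 µg of pCAG-miR30 plasmid, from which artificial microRNAs are made. The microRNA was a scramble control in the first group, a mixture of 3 designs targeting Rbmx in the second and a mixture of 2 designs targeting Rbmxl1 in the third. The GFP-positive fraction was collected by flow sorting after 48 h, and all libraries therefore share the transfection, the GFP plasmid and the sort. Total RNA was depleted of ribosomal RNA before library preparation. Both knockdowns were transient and were made in 1 cell line. The labels do not say what a replicate number stands for, whether the numbers were separate passages, or on which date a library was made. A culture batch and a state of the cells therefore cannot be told apart, and p-values measure the spread between these libraries. In what follows, set 1–2 and set 3–4 name the 2 sets, and every log2 fold change is set 3–4 minus set 1–2.

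Proliferating cells tune several programmes to nutrients, density and growth signals. Sterol-regulated transcription factors of the SREBP family switch on cholesterol and fatty-acid synthesis when membrane sterol is low, and E2F factors switch on DNA replication genes as cells leave G1. ATF4 answers a shortage of amino acids or a burden of unfolded protein, HIF answers low oxygen, FoxO factors act when growth-factor signalling is low, and YAP with TEAD answers spreading and contact. Integrins and their scaffold proteins anchor adherent cells such as Neuro-2a to the dish.

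The libraries held 43.1 to 52.2 M reads assigned to genes, 46.5 ± 2.13 M in set 1–2 and 47.4 ± 3.75 M in set 3–4 (mean ± SD, n = 6 each, exact permutation test p = 0.583). The targeted genes followed the transfection labels in both sets. Rbmx stood at 22.7 to 32.5 CPM (counts scaled to library size) in the 4 Rbmx knockdown libraries and at 57.4 to 89.4 CPM in the other 8, and Rbmxl1 stood at 12.2 to 16.9 CPM in its own knockdown and at 31.2 to 38 CPM elsewhere. Rbmx was itself called higher in set 3–4, by 0.12 to 0.28 on the log2 scale when 1 library or number was left out. That call was lost in 5 alternative settings. The 9 neuroblastoma and neuronal markers, among them Phox2a, Hand2, Gata3, Tubb3, Stmn2, Elavl4 and Chga, summed to 1829–2183 CPM in set 1–2 and to 1584–1765 CPM in set 3–4. Of these markers, 8 passed the filter on low counts, and 4 were called lower and 0 higher. Immune markers summed to at most 1.52 CPM in any library and epithelial markers to at most 0.466 CPM. Endothelial markers summed to 6.59–8.77 CPM in set 1–2 and 5.11–6.38 CPM in set 3–4, glial markers to 15.9–20.4 and 12.8–17.5 CPM, and fibroblast markers to 31.7–46.4 and 25.5–32.7 CPM. In the fibroblast list Pdgfrb held most of the sum and 5 of 7 members had a mean under 1 CPM. Among the few markers of other cells that were tested, Cd68 (immune, 0.79 ± 0.22 on the log2 scale) was called higher. Called lower were Pdgfra (−0.87 ± 0.20) and Pdgfrb (−0.32 ± 0.09) of the fibroblast list, Pecam1 (endothelial, −0.45 ± 0.09) and Mbp (glia, −0.44 ± 0.09). Their part in the results was not tested.

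The 2 sets differed in a large part of the transcriptome. Of 18548 genes tested, 8016 (43.2%) were called at an adjusted p under 0.05 (edgeR quasi-likelihood test, Benjamini-Hochberg adjustment): 3939 (21.2%) were higher in set 3–4 and 4077 (22%) were lower. Most differences were small: the called genes had a median size of 0.40 on the log2 scale, whatever the direction. At an adjusted p under 0.05 and at least 1.5-fold, 2430 genes (13.1%) were called, 1355 (7.31%) higher and 1075 (5.8%) lower. Without replicate 1 the 2430 became 1594. The 1355 had a median of 1.04 CPM and the 1075 a median of 3.49 CPM. The balance was 568 higher against 825 lower among protein-coding genes and 122 against 256 among genes with a mean of at least 20 CPM. Fold change and mean CPM had a Spearman rho of −0.207 across the 18548 genes, a description only because genes of 1 library share its errors. The 6 values of each set did not overlap for 3517 genes (19%), 1603 higher (8.64%) and 1914 lower (10.3%). A call is therefore common in this contrast, and counts of a gene list stand against these shares and the median of all tested genes, 0.02. Calls were more frequent among the 7796 genes with a mean of at least 20 CPM, 25.37% higher and 32.27% lower with a median of −0.03, and among the 12947 protein-coding genes, 22.9% and 28.55% with a median of −0.02. In bulk RNA, fewer cells of a kind and less RNA per cell cannot be told apart.

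The first principal component of log2 CPM held 34.4% of the variance and placed the sets apart. The split of the replicate numbers was proposed with a principal component analysis of these data known. This separation and the count of called genes therefore describe the split and are no independent support for it. Set 1–2 lay between −50.3 and −13.0 and set 3–4 between 26.5 and 34.4. Set 3–4 was the tighter group on this axis, and within set 1–2 the Rbmxl1 knockdown library of replicate 2 lay nearest to it. The second component held 12.7%.

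**Figure D1:**
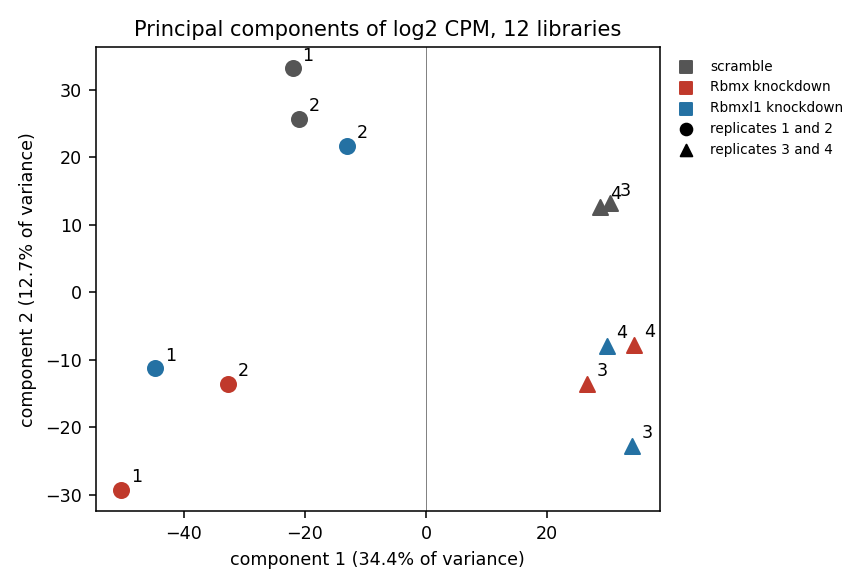
First 2 principal components of log2 CPM over the tested genes, 1 point per library, coloured by transfection, with the replicate number beside the point. Circles (replicates 1 and 2) lie at −50.3 to −13.0 on component 1 and triangles (replicates 3 and 4) at 26.5 to 34.4.

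Most genes called in 1 transfection had the same sign in the others, in contrasts that share no library. A model of all 12 libraries with 1 mean per transfection and set and 1 shared spread called 2947 genes (15.9%) in the 4 scramble libraries, 7.14% of all genes higher and 8.75% lower. It called 4941 (26.6%) in the 4 Rbmx knockdown libraries, 12.3% higher and 14.4% lower, and 4172 (22.5%) in the 4 Rbmxl1 knockdown libraries, 9.89% higher and 12.6% lower. Of the 2947 genes called in scramble, 2866 (97.25%) had the same sign in the Rbmx knockdown and 2873 (97.49%) in the Rbmxl1 knockdown. Of the same 2947 genes, 2173 were also called in the same direction in the Rbmx knockdown, which is 73.74% of the scramble calls and 43.98% of the Rbmx calls, and 2 were called in the opposite direction. For the Rbmxl1 knockdown the number was 2050, which is 69.56% and 49.14%, and 1 gene was called in the opposite direction. Between the knockdowns, 94.7% of the Rbmx calls had the same sign for Rbmxl1 and 94.44% of the Rbmxl1 calls had the same sign for Rbmx, with 2716 genes called in the same direction (54.97% and 65.1%) and 11 in the opposite direction. In all 3 transfections 1749 genes (9.43%) were called, 692 higher in each, 1056 lower in each and 1 with mixed signs. Across the 18548 genes, which are not independent replicates, the changes of any 2 transfections had a Pearson r of 0.49 to 0.51.

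A group of 5 genes had been picked beforehand as markers of the difference, so their values are a description. They also sit in 4 of the gene lists. Without them the counts were 16 of 24 higher for nucleotide supply, 28 of 39 higher for replication, 16 of 19 lower for sterol synthesis and 9 of 26 lower for integrins. Ung, the uracil-DNA glycosylase that removes uracil from DNA, lies at chr5:114130386-114139323. Its 3 pairs of values in set 1–2 were 14.3 and 16.6 CPM in scramble, 17.2 and 19.7 in the Rbmx knockdown and 16.4 and 17.3 in the Rbmxl1 knockdown. In set 3–4 they were 43.5 and 39.4, 44.0 and 45.2, and 46.6 and 40.7 CPM. Each library of set 3–4 was above every library of set 1–2, and the log2 fold change was 1.36 ± 0.06 (SE). Timeless, a fork protection factor that travels with the replisome, lies at chr10:128232065-128252941. It stood at 38.3 and 37.6, 41.4 and 40.4, and 41.3 and 39.9 CPM in set 1–2, and at 77.6 and 74.1, 71.3 and 74.1, and 75.1 and 72.7 CPM in set 3–4. The libraries of a set lay close together for this gene, and the log2 fold change was 0.90 ± 0.05.

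Hmgcs1, which makes HMG-CoA for the mevalonate pathway, lies at chr13:119690379-119708260. It stood at 201 and 226, 233 and 250, and 250 and 194 CPM in set 1–2, in the same order of transfections, and at 91.6 and 98.1, 103 and 102, and 94.9 and 97.1 CPM in set 3–4. No library of set 3–4 reached the lowest value of set 1–2, and the log2 fold change was −1.21 ± 0.06. Ahnak, a very large scaffold protein under the plasma membrane, lies at chr19:8989284-9076914. It stood at 791 and 721, 622 and 728, and 688 and 643 CPM in set 1–2 and at 280 and 263, 277 and 273, and 307 and 248 CPM in set 3–4, a log2 fold change of −1.35 ± 0.06. Itga3, the alpha-3 integrin subunit that binds laminin, lies at chr11:95044474-95076801 on the minus strand. It stood at 60.2 and 56.6, 71.4 and 62.9, and 75.5 and 64.2 CPM in set 1–2 and at 29.0 and 26.0, 26.5 and 25.1, and 26.1 and 27.4 CPM in set 3–4, a log2 fold change of −1.28 ± 0.07. For Ahnak and Itga3, too, the sets did not overlap in any transfection. Coordinates are those of GENCODE M21 on GRCm38. Timeless and Hmgcs1 each overlap 1 gene on the opposite strand, whose reads cannot be told apart from theirs because the strand setting of the counting is not given in the sources used here.

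**Figure D2:**
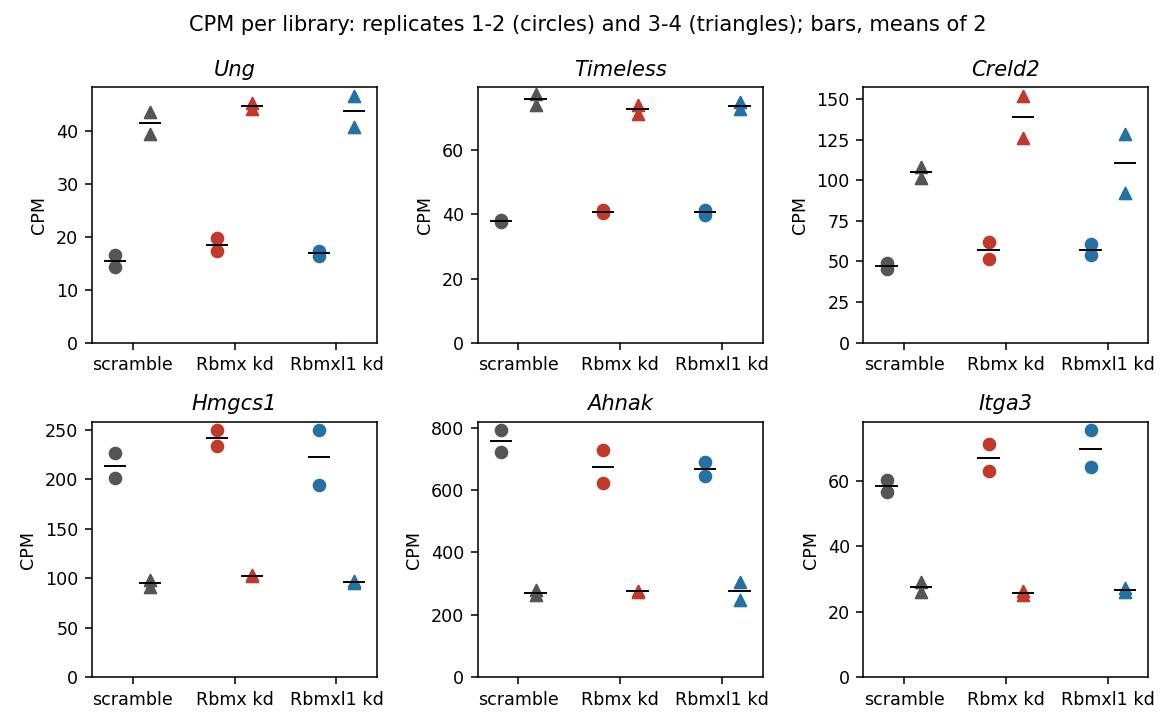
CPM of 6 genes in each of the 12 libraries, by transfection, on linear axes that start at 0; circles are replicates 1–2, triangles are replicates 3–4 and bars are means of 2 libraries. Ung, Timeless and Creld2 were higher and Hmgcs1, Ahnak and Itga3 lower in set 3–4, with no overlap of the sets in any transfection.

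The enzymes of cholesterol synthesis were lower in set 3–4 almost throughout the pathway. Of 20 members tested, 17 were called lower and 2 higher, with a median log2 fold change of −0.66 (all genes 0.02, 22% called lower), and for 16 of the 17 the sets did not overlap. Fdft1, squalene synthase, stood at 105, 120 and 135 CPM (lowest, median and highest library) in set 1–2 and at 50.8, 54.5 and 58.9 CPM in set 3–4. Its log2 fold change was −1.14 ± 0.06 (adjusted p = 9.5e-10). Before that step, in the mevalonate part, Mvd changed by −0.85 ± 0.06 and Idi1 by −0.74 ± 0.08 on the log2 scale. After it, among the enzymes that trim the sterol, Msmo1 changed by −0.90 ± 0.07 and Nsdhl by −0.81 ± 0.09. The members called higher were Ebp and Tm7sf2, and Fdps was not called. These 3 are named after their values were seen.

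Uptake and control of sterol moved the same way in part. Of 13 members tested in that list, 7 were called lower and 0 higher (median −0.16, and −0.34 without replicate 4). Insig1, which holds SREBP in the endoplasmic reticulum and is itself induced by SREBP, stood at 200, 258 and 261 CPM in set 1–2 and at 99.0, 139 and 153 CPM in set 3–4 (log2 fold change −0.89 ± 0.08). The sets did not overlap for this gene. Stard4, a sterol carrier, changed by −0.62 ± 0.06, Npc2, which unloads cholesterol from lysosomes, by −0.44 ± 0.06, and Srebf2, the SREBP gene of the sterol branch, by −0.37 ± 0.05. In fatty-acid synthesis 11 of 17 members were called lower and 0 higher (median −0.17). The desaturases led this list: Scd1 fell from 25.2, 28.3 and 33.2 CPM to 12.2, 13.9 and 16.1 CPM, and Scd2 from 2030, 2293 and 2700 to 1430, 1523 and 1612 CPM. Fasn, fatty-acid synthase, overlapped between the sets, at 1408, 1648 and 1791 CPM against 1109, 1338 and 1465 CPM (log2 fold change −0.30 ± 0.07, adjusted p = 0.00257), and was not called in the scramble libraries alone (−0.15).

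RefSeq promoter windows (GRCm38.p6, from 250 bases before to 50 bases after the start) were searched on both strands for the letters TCACNCCAC, which make up a sterol regulatory element. They occurred in 1 of the 15 sterol synthesis genes with a window and in 1.42% of 10924 tested genes with a window. The gene was Hmgcs1, whose upstream sequence is shown because it is the marker of this programme. The 250 bases before its start are chr13:119690101-119690350 on the plus strand, and the capitals mark the letters, whose first base is at −137 from the start.
Hmgcs1: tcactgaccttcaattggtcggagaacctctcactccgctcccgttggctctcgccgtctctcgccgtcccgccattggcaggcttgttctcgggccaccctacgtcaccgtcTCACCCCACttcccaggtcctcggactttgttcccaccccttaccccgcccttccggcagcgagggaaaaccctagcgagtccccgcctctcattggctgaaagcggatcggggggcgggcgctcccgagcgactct
A match is a description of letters and not of binding, and their absence from the windows of the other listed genes says nothing about the factor.

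DNA replication genes were higher in set 3–4. All 40 members of the licensing and fork list were tested, 29 were called higher and 0 lower, against 21.2% of all genes called higher, and the median log2 fold change was 0.22. The differences were modest outside Timeless. Among the licensing factors, Mcm2, a helicase subunit, stood at 209, 234 and 252 CPM in set 1–2 and at 313, 322 and 350 CPM in set 3–4 (log2 fold change 0.49 ± 0.05). Cdc6, which loads the helicase at origins, stood at 38.7, 43.9 and 48.8 CPM against 64.0, 65.8 and 71.5 CPM (0.60 ± 0.05). The sets did not overlap for either gene. The origin recognition subunits Orc1 and Orc6 both changed by 0.50, with standard errors of 0.08 and 0.06. At the fork, Dna2, a nuclease and helicase, changed by 0.62 ± 0.06 and Wdhd1, which links helicase and polymerase, by 0.54 ± 0.06. In the scramble libraries fitted alone the list's median was 0.35. By transfection, 24 of the 40 were called higher in scramble, 14 in the Rbmx knockdown and 11 in the Rbmxl1 knockdown, and none were called lower.

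The same windows were searched for 4 words of the E2F site (TTTCCCGC, TTTGGCGC, TTTCGCGC, TTTGCCGC) on both strands, which can overlap each other where strands mirror. At least 1 word was present in 13 of the 31 replication genes with a window (41.9%) and in 4.61% of 10924 tested genes with a window. It was present in 7 of 19 G1/S genes (36.8%). Of the other lists that were higher, nucleotide supply had 1 of 23 genes with a word (4.35%) and homologous recombination 3 of 17 (17.6%). Among all genes called higher the share was 6.06% and among all genes called lower 3.83%. At 1.5-fold or more these shares were 4.5% and 1.97%. The stretches below hold the word in capitals for the 7 replication genes of these 13 that were called higher with sets that did not overlap. They were chosen after the search, to show what the members share.
Mcm3 (chr1:20820276-20820303, minus strand): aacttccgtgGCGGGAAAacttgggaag
Mcm5 (chr8:75109346-75109373, plus strand): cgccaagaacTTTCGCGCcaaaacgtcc
Mcm6 (chr1:128359798-128359825, minus strand): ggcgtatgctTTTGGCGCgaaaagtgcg
Cdc6 (chr11:98908003-98908030, plus strand): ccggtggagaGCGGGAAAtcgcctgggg
Orc1 (chr4:108579417-108579444, plus strand): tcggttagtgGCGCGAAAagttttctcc
Pold1 (chr7:44548766-44548786, minus strand): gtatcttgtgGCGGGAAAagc
Clspn (chr4:126556991-126557018, plus strand): ccgcgtctggGCGCGAAAgctcgaactt
The log2 fold changes of these 7 genes ranged from 0.16 (Clspn) to 0.60 (Cdc6). Mcm7, Cdt1 and Rfc3 also hold a word and were not called, at 0.06, 0.10 and 0.04. Gins3, Pola1 and Lig1 hold a word and were called higher with sets that overlapped.

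The supply of nucleotides was higher as well. Of 25 members, 17 were called higher and 2 lower (median 0.30). Cad, which starts pyrimidine synthesis, stood at 182, 209 and 228 CPM in set 1–2 and at 323, 348 and 365 CPM in set 3–4 (log2 fold change 0.75 ± 0.04, adjusted p = 1.5e-09). In the folate and purine branches, Mthfd1 changed by 0.55 ± 0.04, Shmt1 by 0.48 ± 0.05, Pfas by 0.47 ± 0.05 and Adsl by 0.38 ± 0.05. Tyms, thymidylate synthase, overlapped between the sets, at 48.7, 53.1 and 65.3 CPM against 63.3, 69.2 and 72.2 CPM. Homologous recombination and checkpoint genes gave 17 of 23 called higher and 1 lower (median 0.31). By transfection the counts were 14 higher and 0 lower in scramble, 14 and 0 in the Rbmx knockdown, and 5 and 3 in the Rbmxl1 knockdown, whose median was 0.185. Chek1, the checkpoint kinase that answers stalled forks, stood at 18.5, 21.4 and 22.5 CPM against 31.2, 32.6 and 33.9 CPM (0.64 ± 0.06). Fanca, of the Fanconi core complex, stood at 24.0, 28.6 and 31.1 CPM against 45.4, 48.8 and 52.3 CPM. Brca1, at −0.14 ± 0.07 (adjusted p = 0.0878), was not called.

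The rest of the cell cycle did not follow replication as a block. Of 21 G1/S regulators tested, 6 were called higher and 7 lower (median 0.06, and 0.034 to 0.10 when 1 library or number was left out). These shares, 28.57% and 33.33%, are near the 25.37% and 32.27% of genes with a mean of at least 20 CPM. Ccnd1, cyclin D1, stood at 244, 272 and 300 CPM in set 1–2 and at 343, 365 and 402 CPM in set 3–4 (log2 fold change 0.43 ± 0.05). Mybl2, an E2F target, changed by 0.37 ± 0.05 and Skp2, which marks p27 for degradation, by 0.33 ± 0.05. Cdkn1b, the gene of p27, stood at 146, 167 and 171 CPM against 119, 130 and 144 CPM (−0.33 ± 0.05). The sets did not overlap for these 4 genes, while Ccne1, cyclin E1, was not called (0.05 ± 0.06, adjusted p = 0.516). Of 30 mitosis genes 5 were called higher and 5 lower (median −0.05), shares of 16.7% each that lie below those of all genes. The median ranged from −0.087 without replicate 3 to −0.00027 without replicate 4 when 1 library or number was left out. Mki67, the proliferation antigen, stood at 527, 572 and 624 CPM against 441, 466 and 504 CPM (−0.27 ± 0.05). Ccnb1, cyclin B1, at −0.01 ± 0.08, and Plk1, the polo kinase, at −0.15 ± 0.09, were not called. The mitosis counts varied by transfection: 0 higher and 11 lower in scramble, 4 and 0 in the Rbmx knockdown, and 3 and 5 in the Rbmxl1 knockdown.

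Ribosome assembly and the ribosomal proteins went in opposite directions. In the list of MYC family and ribosome biogenesis genes, 18 of 27 were called higher and 2 lower (median 0.23). Rrp12, which exports ribosomal subunits, stood at 43.3, 47.6 and 53.6 CPM in set 1–2 and at 78.5, 80.3 and 90.9 CPM in set 3–4 (log2 fold change 0.81 ± 0.06). Rrp9, of the U3 snoRNP, changed by 0.70 ± 0.06, Dkc1, the pseudouridine synthase, by 0.64 ± 0.06, Nop56, a box C/D core protein, by 0.60 ± 0.06 and Bop1, of large-subunit assembly, by 0.53 ± 0.05. The sets did not overlap for any of these 5 genes. The members called lower were Npm1 (−0.50 ± 0.07, with sets that did not overlap) and Ncl (−0.14 ± 0.05). Mycn, the MYC family member of neuroblastoma, was not called (0.24 ± 0.11, adjusted p = 0.0938). Its mean was 15.6 CPM, while that of Myc was 398 CPM, and Myc was not called either (−0.02 ± 0.07). Of 22 cytosolic ribosomal proteins, 21 were called lower and 0 higher (median −0.39). Rps3 stood at 864, 957 and 1030 CPM against 665, 720 and 782 CPM (−0.38 ± 0.06), and Rpl22 changed most in the list, by −0.67 ± 0.07. Ribosomal protein genes have many near-identical pseudogene copies. Reads that aligned to more than 1 place are not in the gene counts, and their share of all reads in the files was 24.9% ± 1.64 in set 1–2 and 22.5% ± 1.47 in set 3–4 (SD, n = 6 each, exact two-sided permutation test within transfections p = 0.0185, adjusted over 14 measures 0.0432). Its part in the ribosomal protein counts was not tested.

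Folding genes of the endoplasmic reticulum were higher in set 3–4. Of 19 genes of that list, which includes the unfolded protein response, 15 were called higher and 0 lower (median 0.43). Creld2, a stress-induced disulphide isomerase of that compartment, stood at 45.3, 52.7 and 62.1 CPM in set 1–2 and at 92.0, 117 and 152 CPM in set 3–4 (log2 fold change 1.13 ± 0.08, adjusted p = 1.9e-08). Sdf2l1 and Manf, both secretory-pathway proteins induced with it, changed by 1.01 ± 0.10 and 0.88 ± 0.07. Hyou1, a large chaperone, stood at 502, 645 and 713 CPM against 788, 1122 and 1230 CPM. Hspa5, the chaperone BiP, overlapped between the sets, at 820, 1098 and 1241 CPM against 1191, 1579 and 1754 CPM (0.55 ± 0.08). In set 3–4 the lowest value of Hspa5, Hyou1, Creld2, Sdf2l1 and Manf was that of the Rbmxl1 knockdown library of replicate 3 in each case.

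The heat shock list, which holds cytosolic and mitochondrial chaperones and the transcription factor Hsf1, was mostly lower. Of 13 tested, 9 were called lower and 1, Hsf1, higher (median −0.42). Hspa8, the constitutive Hsc70 chaperone, stood at 2286, 2585 and 3211 CPM in set 1–2 and at 1132, 1343 and 1504 CPM in set 3–4 (log2 fold change −0.99 ± 0.09). Hsph1 changed by −0.62 ± 0.06, Dnaja1 by −0.45 ± 0.04 and Hsp90ab1 by −0.44 ± 0.05. Of the mitochondrial members, Hspe1 was called lower (−0.42 ± 0.05), and Hspd1 and Hspa9 were not called. Of the stress-inducible pair, Hspa1a was too low to be tested and Hspa1b, at a mean of 0.134 CPM, was not called (−0.63 ± 0.63, adjusted p = 0.447). The ATF4 list gave 15 of 22 called higher and 3 lower (median 0.36). Ddit3, the stress factor CHOP, stood at 63.3, 71.9 and 79.1 CPM against 105, 120 and 143 CPM (0.77 ± 0.06). The amino-acid transporter pair moved together, Slc7a5 by 0.57 ± 0.05 and Slc3a2 by 0.56 ± 0.05, as did the serine enzyme Psph, by 0.57 ± 0.05. Asns, asparagine synthetase, overlapped between the sets and stood at 0.18 ± 0.06 (adjusted p = 0.0159), a call lost without replicate 1 (0.17), without replicate 3 (0.19), without replicate 4 (0.17) and in 3 further settings (0.12 to 0.19).

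Glycolysis and other hypoxia-responsive genes were lower in set 3–4. Of 18 glycolysis genes, 15 were called lower and 1 higher (median −0.48). By transfection, 11 were called lower in scramble, 15 in the Rbmx knockdown and 4 in the Rbmxl1 knockdown, with medians of −0.53, −0.68 and −0.26. Aldoc, a brain-type aldolase, stood at 23.9, 32.4 and 53.1 CPM in set 1–2 and at 6.83, 12.8 and 16.8 CPM in set 3–4 (log2 fold change −1.62 ± 0.13). Slc2a1, the glucose transporter, overlapped between the sets, at 75.1, 111 and 178 CPM against 49.5, 67.4 and 91.0 CPM (−0.75 ± 0.11). The higher gene was Pfkfb3, which makes the activator of phosphofructokinase, at 0.54 ± 0.05. For 2 of the 15 lower genes the sets did not overlap, and set 1–2 was widely spread. The Rbmx knockdown library of replicate 2 held the highest value of Aldoc, Slc2a1, Ldha and Gpi1. Ldha, lactate dehydrogenase, stood at 688, 938 and 1556 CPM against 522, 782 and 1047 CPM (−0.40 ± 0.12, adjusted p = 0.0112), and was not called without replicate 4 (−0.32).

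Of 17 hypoxia targets outside glycolysis, 13 were called lower and 0 higher (median −0.63). Egln3, a HIF prolyl hydroxylase, stood at 2.04, 4.27 and 6.26 CPM in set 1–2 and at 0.744, 1.06 and 1.75 CPM in set 3–4 (log2 fold change −1.80 ± 0.18). Bnip3, a mitophagy receptor, overlapped between the sets, at 72.5, 111 and 205 CPM against 19.0, 33.9 and 77.6 CPM (−1.64 ± 0.20). Its relative Bnip3l did not overlap and changed by −1.01 ± 0.09. Vegfa, the angiogenic growth factor, was not called (0.05 ± 0.06, adjusted p = 0.518). Nuclear-encoded genes of oxidative phosphorylation gave 10 of 21 called higher and 2 lower (median 0.13, and 0.058 with a GC and length trend removed). For 1 of them, Cyc1, the sets did not overlap (0.37 ± 0.04). Of the 13 genes of the mitochondrial genome, 5 were called lower and 0 higher (median −0.20), with sets that overlapped for all 13. Their median was −0.39 in scramble and −0.29 in the Rbmxl1 knockdown but 0.12 in the Rbmx knockdown, where 1 was called higher and 0 lower. Over all transfections it was −0.086 without the Rbmxl1 knockdown library of replicate 2, −0.088 without replicate 2, −0.093 without replicate 3 and −0.33 without replicate 4. The mitochondrial share of reads in genes was 1.19% ± 0.136 against 1.22% ± 0.154 (SD, n = 6 each, exact permutation test p = 0.731).

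Of 28 genes of integrins and focal adhesion, 11 were called lower and 3 higher (median −0.08). The 11 include Ahnak and Itga3, picked beforehand as markers of the difference. Without these markers 9 of 26 (34.62%) were called lower and 3 (11.54%) higher, with a median of −0.07, and the share lower is near the 32.27% of genes with a mean of at least 20 CPM. The median of the 28 was −0.054 without replicate 1, −0.14 without replicate 3 and −0.031 without replicate 4. The large falls were those of Ahnak and Itga3 and of Ahnak2, the relative of Ahnak, which stood at 14.1, 16.0 and 27.8 CPM in set 1–2 and at 6.60, 7.46 and 8.66 CPM in set 3–4. Of the 8 other integrin subunits, 3 were called lower and 5 were not called (Itga6, Itga7, Itgav, Itgb1 and Itgb5, from −0.06 to 0.12). The lower ones included Itga1, a collagen receptor, by −0.70 ± 0.05 and Itgb3, a partner of the alpha-v subunit, by −0.66 ± 0.06 on the log2 scale. Tns1, which ties integrins to actin, changed by −0.54 ± 0.06. Of 15 matrix genes tested, 5 (33.33%) were called lower and 3 higher, near the share of lower genes among those with at least 20 CPM, with a median of −0.04 that was 0.0014 without the Rbmxl1 knockdown library of replicate 4, and 8 of the 23 listed were too low to be tested. Lama4, a laminin chain, stood at 550, 623 and 774 CPM against 238, 384 and 510 CPM (−0.79 ± 0.14), and Fn1, fibronectin, changed by −0.26 ± 0.05.

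Of 13 cell-cell contact genes tested, 8 were called lower and 0 higher (median −0.20, and −0.11 in the scramble libraries alone). Jup, plakoglobin, a catenin of junctions and desmosomes, stood at 77.2, 98.5 and 121 CPM in set 1–2 and at 39.7, 42.0 and 50.2 CPM in set 3–4 (log2 fold change −1.18 ± 0.08). Nectin2, an adhesion receptor, changed by −0.54 ± 0.08, Ctnnd1, p120 catenin, by −0.38 ± 0.06 and Ctnna1, alpha-catenin, by −0.33 ± 0.05. Ncam1, the neural cell adhesion molecule, was not called (0.14 ± 0.06, adjusted p = 0.0766). Among 9 YAP and TEAD targets tested, 5 were called lower and 1, Ccn1, higher (median −0.40). Of the lower ones, F3, tissue factor, stood at 43.1, 47.0 and 56.2 CPM against 25.1, 28.1 and 34.5 CPM (−0.73 ± 0.05), and Tead1, the DNA-binding partner of YAP, changed by −0.39 ± 0.05. Ccn2 and Ankrd1, both canonical targets, were too low to be tested. The TEAD letters CATTCC lay in the window of 8 of the 11 listed genes with one (72.7%) and in 14.3% of tested genes. The list was made of known targets, so this share describes the list and not the difference between sets. The 11 were drawn from all 13 listed genes, tested or not, and the window of Ccn1 also holds the letters. Actin and SRF targets gave 4 of 14 called higher and 3 lower (median 0.06, from −0.0057 without the Rbmxl1 knockdown library of replicate 2 to 0.11 without replicate 4), with Srf itself at 0.55 ± 0.05. These shares, 28.57% and 21.43%, stood against 21.2% and 22% of all genes.

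Genes that restrain growth were mostly lower. In the FoxO list 9 of 12 tested were called lower and 2 higher (median −0.39). Ccng2, an atypical cyclin that slows the cycle, stood at 41.6, 54.6 and 66.5 CPM in set 1–2 and at 19.5, 22.2 and 29.4 CPM in set 3–4 (log2 fold change −1.18 ± 0.10). Klhl24 changed by −1.06 ± 0.10, Foxo3 itself by −0.63 ± 0.07 and Hbp1, a transcriptional repressor, by −0.61 ± 0.06. Txnip, which binds thioredoxin and limits glucose uptake, went the other way, from 0.997, 1.12 and 1.47 CPM to 2.55, 3.39 and 4.24 CPM (1.45 ± 0.16). The sets did not overlap for these 5 genes. Of 14 p53 targets tested, 5 were called higher and 3 lower (median 0.10, and 0.046 without replicate 3). Trp53inp1, a p53-induced regulator of autophagy and cell death, stood at 29.0, 34.6 and 37.3 CPM against 8.67, 9.90 and 15.3 CPM (−1.63 ± 0.08). Phlda3, an inhibitor of AKT, changed by −0.78 ± 0.06 and Aen, a nuclease, by 0.43 ± 0.05, while Mdm2 and Ccng1 were not called (−0.09 and −0.16).

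Immediate early and ERK target genes gave 5 of 21 called higher and 3 lower (median −0.01, from −0.070 without replicate 3 to 0.033 without the Rbmxl1 knockdown library of replicate 4). These shares, 23.81% and 14.29%, stood against 21.2% and 22% of all genes, and the sets overlapped for the 3 lower members. Fos stood at 2.17, 3.09 and 4.03 CPM in set 1–2 and at 4.57, 6.39 and 8.63 CPM in set 3–4 (log2 fold change 1.02 ± 0.17). Egr1 ranged from 36.6 to 124 CPM within set 1–2 and from 44.6 to 102 CPM within set 3–4 and was not called (0.10 ± 0.28, adjusted p = 0.803). In the lysosome and autophagy list 15 of 22 were called lower and 0 higher (median −0.25). Lamp2, a membrane protein of lysosomes, stood at 62.7, 74.8 and 78.5 CPM against 47.4, 50.0 and 55.9 CPM (−0.51 ± 0.06). Ctsd, cathepsin D, changed by −0.50 ± 0.07.

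Interferon and nucleic-acid sensing genes were lower in set 3–4, with 8 of 13 tested called lower and 0 higher. Their median was −0.75, and it ranged from −0.88 to −0.58 when 1 library or number was left out. By transfection it was −0.79 in scramble, −0.999 in the Rbmx knockdown and −0.43 in the Rbmxl1 knockdown. Irf7, a factor that amplifies the interferon response, stood at 4.72, 5.61 and 7.35 CPM in set 1–2 and at 0.688, 1.33 and 3.81 CPM in set 3–4 (log2 fold change −1.91 ± 0.27). Oasl2, an interferon-induced antiviral protein, stood at 9.66, 10.6 and 12.4 CPM against 3.25, 3.96 and 7.74 CPM, and Ifih1 and Ddx58, the sensors MDA5 and RIG-I, changed by −1.02 ± 0.15 and −0.90 ± 0.12. The highest library of set 3–4 was the Rbmxl1 knockdown of replicate 3 for all 4 of these genes. By transfection, 8 of the 13 were called lower in scramble, 11 in the Rbmx knockdown and 3 in the Rbmxl1 knockdown.

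Neuronal genes were lower in set 3–4, 18 of 24 called lower and 4 higher (median −0.26). Stmn2, a microtubule regulator of growing axons, stood at 288, 312 and 330 CPM in set 1–2 and at 194, 215 and 221 CPM in set 3–4 (log2 fold change −0.56 ± 0.05). Chgb, a secretory-granule protein, changed by −0.62 ± 0.06, Syt1, the synaptic calcium sensor, by −0.55 ± 0.06 and Mapt, tau, by −0.52 ± 0.06. Vgf, a secreted neuropeptide precursor, went the other way, from 605, 735 and 854 CPM to 877, 1104 and 1204 CPM (0.53 ± 0.05). The sets did not overlap for these 5 genes. Of 15 regulators of the sympathetic lineage and catecholamine enzymes, 4 were called higher and 4 lower. Their median was −0.09, but −0.062 without replicate 1, −0.056 without replicate 2 and −0.025 in the scramble libraries alone. The shares called, 26.67% each way, stood against 25.37% higher and 32.27% lower among genes with a mean of at least 20 CPM. The sets overlapped for all members called higher, which are not named here. Of the lower ones, Gata2, a factor of that lineage, stood at 532, 567 and 678 CPM against 330, 361 and 389 CPM (−0.70 ± 0.06), and Isl1 changed by −0.42 ± 0.06. Hand2 was not called (−0.09 ± 0.05, adjusted p = 0.163).

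**Figure D3:**
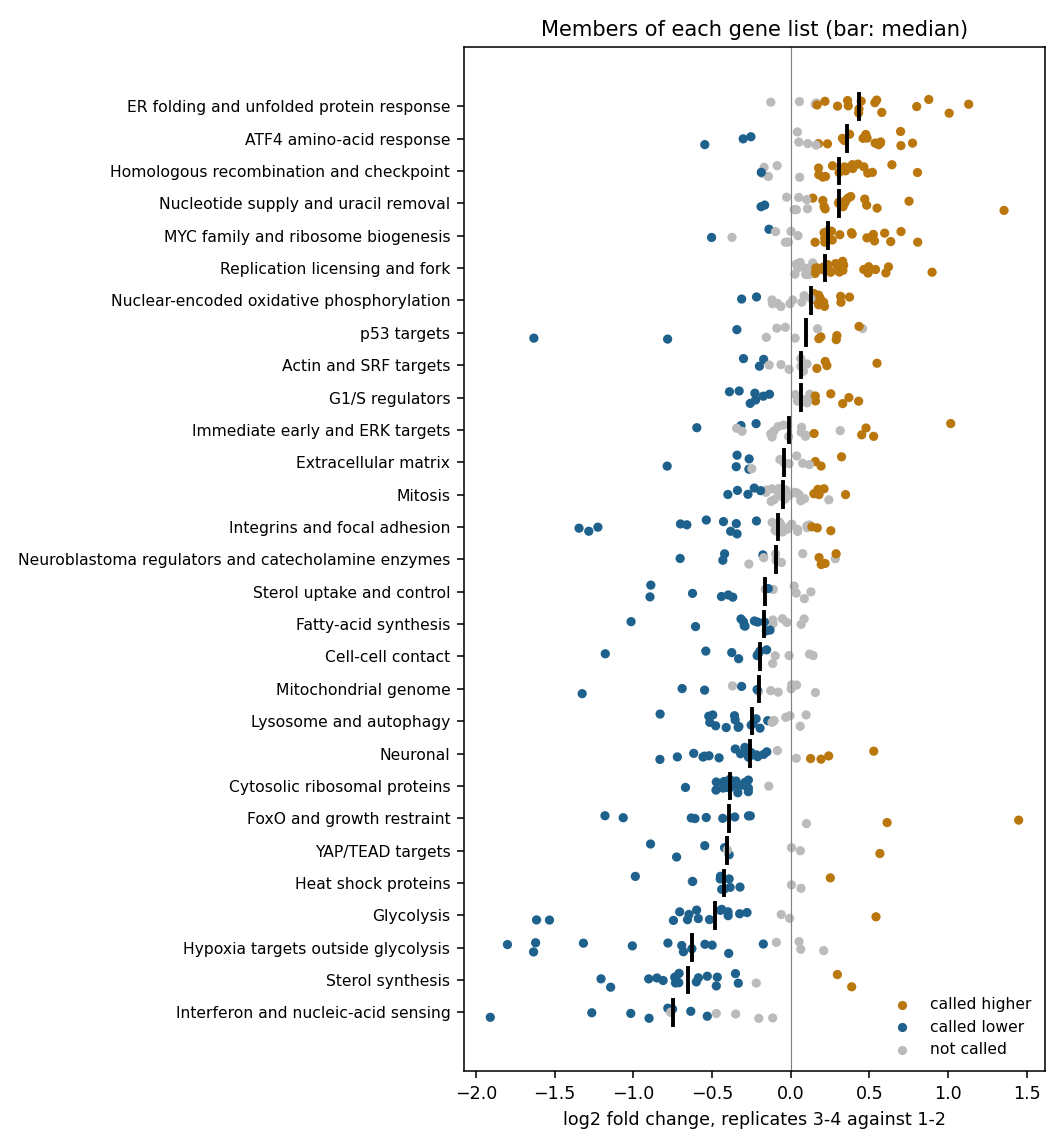
Log2 fold change (set 3–4 minus set 1–2) of every tested member of the 29 gene lists, 1 point per gene, coloured by call, with a black bar at each list's median; lists are ordered by that median. The plotted medians run from −0.75 for interferon and nucleic-acid sensing to 0.43 for endoplasmic reticulum folding.

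A list score, the mean log2 CPM of its tested members less the mean of the same transfection, gives a value for each library. The score and the median differed in sign for 2 lists: the mean score of p53 targets was 0.037 in set 1–2 and −0.037 in set 3–4, and that of immediate early genes was −0.027 and 0.027. List medians did not keep 1 sign over the 3 transfections for G1/S, mitosis, the mitochondrial genome, matrix, actin and SRF targets, immediate early genes and neuroblastoma regulators. For 21 of the 29 lists the 6 scores of set 3–4 did not overlap those of set 1–2. The sterol synthesis score ran from 0.15 to 0.34 in set 1–2 and from −0.36 to −0.24 in set 3–4. The replication score ran from −0.19 to −0.05 against 0.10 to 0.20. The hypoxia score ran from 0.20 to 0.48 against −0.48 to −0.21. The 8 lists whose sets overlapped were G1/S, mitosis, oxidative phosphorylation, the mitochondrial genome, actin and SRF targets, immediate early genes, p53 targets and the neuroblastoma regulators.

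**Figure D4:**
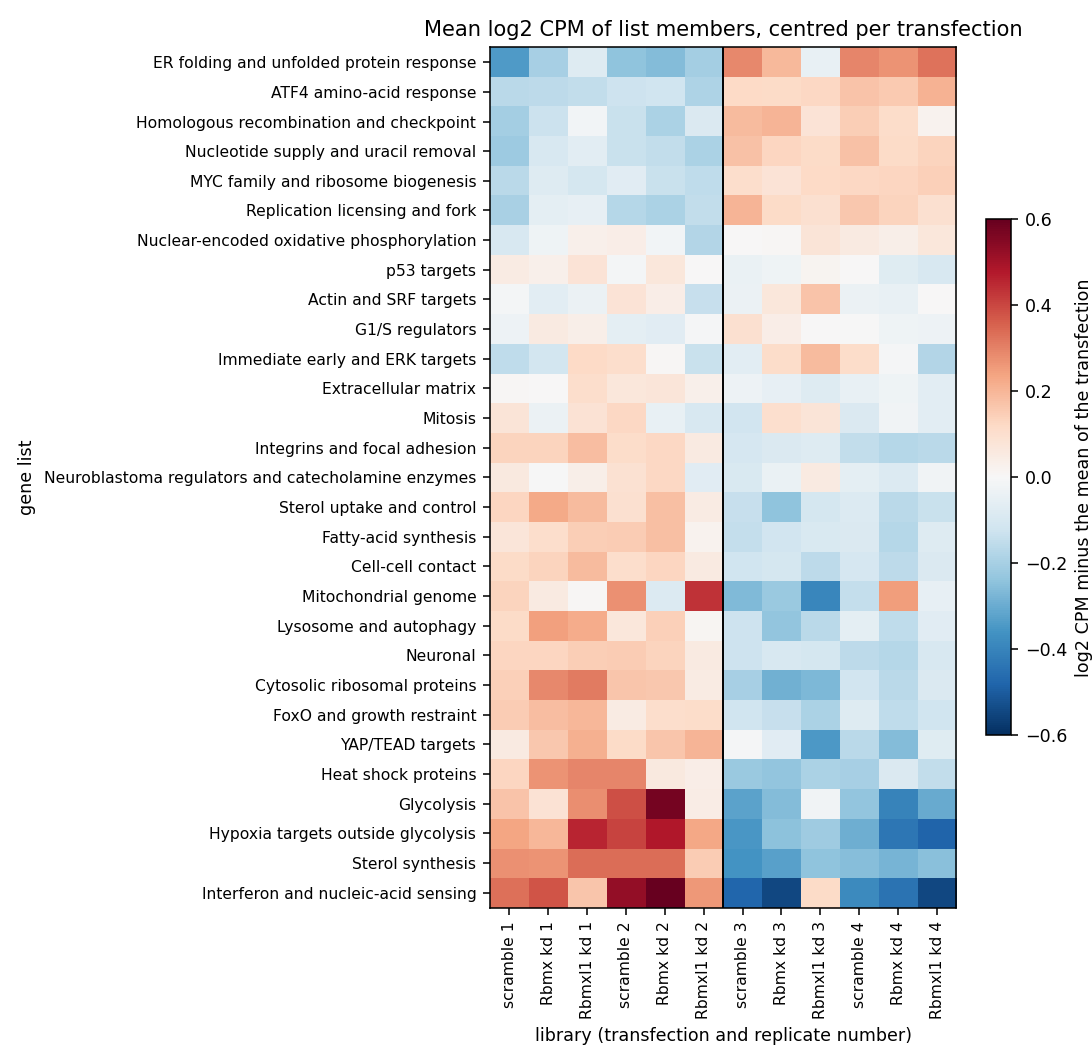
List scores in the 12 libraries, set 1–2 to the left of the line and set 3–4 to the right; colour is mean log2 CPM of the members minus the mean of the 4 libraries of the same transfection. Sterol synthesis scores run from 0.15 to 0.34 on the left and from −0.36 to −0.24 on the right.

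Over all genes, listed or not, the 12 protein-coding genes with the largest differences in each direction among those with a mean of at least 5 CPM and sets that did not overlap were these. The higher ones, by 1.05 to 1.55 on the log2 scale, were Mamdc4, Id3, Mcf2l, Ung, 4930412O13Rik, Hdac9, Actn2, Grhl1, Creld2, Dennd6b, Fst and Fkbp11. Id3, an inhibitor of basic helix-loop-helix factors, stood at 6.32, 9.10 and 14.3 CPM in set 1–2 and at 21.2, 24.1 and 34.8 CPM in set 3–4. Hdac9, a class IIa histone deacetylase, stood at 11.7, 12.5 and 19.3 CPM against 29.2, 33.8 and 41.3 CPM, and Fst encodes follistatin, which binds activin. The lower ones, by −1.33 to −2.57, were Ndufa4l2, Fblim1, Pkhd1l1, Trp53inp1, Aldoc, Timp3, Plekha2, Slc40a1, Parp14, Adssl1, Ahnak and Ace. Ndufa4l2, a HIF-induced mitochondrial protein, had the largest difference of these 24, at 9.02, 11.4 and 17.5 CPM against 0.974, 2.28 and 3.28 CPM (−2.57 ± 0.17, adjusted p = 8.7e-09). Fblim1, which recruits filamin to integrin contacts, stood at 9.04, 10.2 and 11.9 CPM against 1.62, 2.88 and 3.37 CPM. Timp3, an inhibitor of matrix metalloproteinases, stood at 16.1, 17.5 and 19.6 CPM against 5.13, 5.74 and 6.78 CPM, and Slc40a1, the iron exporter ferroportin, changed by −1.44 ± 0.12.

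Whether the difference between sets itself differed between transfections was tested with interaction terms. No gene was called for either knockdown against scramble (0 of 18548 by edgeR's quasi-likelihood test, with 1550 genes at an unadjusted p under 0.05 for Rbmx and 1202 for Rbmxl1, and 0 with DESeq2's size factors). In the fit that holds the replicate number as a block, the calls were 12 for Rbmx and 0 for Rbmxl1. Without the Rbmxl1 knockdown library of replicate 4, 47 genes were called for Rbmxl1, but that fit holds 1 Rbmxl1 knockdown library in set 3–4, which is assumed to vary like the other groups. Otog, which encodes otogelin, was among the smallest p-values of both interactions. It stood at 67.0 and 63.5 CPM in the scramble libraries of set 1–2 and at 54.3 and 46.3 CPM in those of set 3–4, at 75.1 and 55.8 against 18.4 and 23.0 CPM in the Rbmx knockdown, and at 79.8 and 79.1 against 18.7 and 28.2 CPM in the Rbmxl1 knockdown. Its interaction terms were −1.29 for Rbmx (adjusted p = 0.206) and −1.39 for Rbmxl1 (adjusted p = 0.209). Cenpe, a mitotic kinesin, stood at 56.0 and 55.3 against 38.6 and 42.8 CPM in scramble and at 52.6 and 49.5 against 61.5 and 61.5 CPM in the Rbmx knockdown (interaction 0.72, adjusted p = 0.206). The other genes that the rule names were Sgk1 and ENSMUSG00000118642 for Rbmx and Zfp568 and 1810010H24Rik for Rbmxl1, none past the threshold.

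The sets also differed in where reads fell, which moves with the gene results above. Reads outside features per 100 reads in genes were 60.5 ± 3.03 in set 1–2 (56.9 to 64.0) and 71.0 ± 3.88 in set 3–4 (65.8 to 74.1; SD, n = 6 each), without overlap. The exact two-sided permutation test within transfections gave p = 0.00926, the smallest that its arrangements allow, and 0.0259 after adjustment over 14 measures. This test, like the gene tests, takes libraries as the unit. If the replicate number were the unit, 2 against 2, no such test could pass, since the smallest two-sided p would be 0.333. Pseudogenes took 0.563% ± 0.0232 of reads in genes against 0.506% ± 0.0202, also without overlap, and the 100 most abundant genes took 16.6% ± 0.745 against 15.4% ± 0.462. The shares of protein-coding genes, long non-coding genes and small RNA genes overlapped between the sets, with exact permutation p-values of 0.463, 0.815 and 0.176. The part of these shifts in the differences of single genes was not tested.

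**Figure D5:**
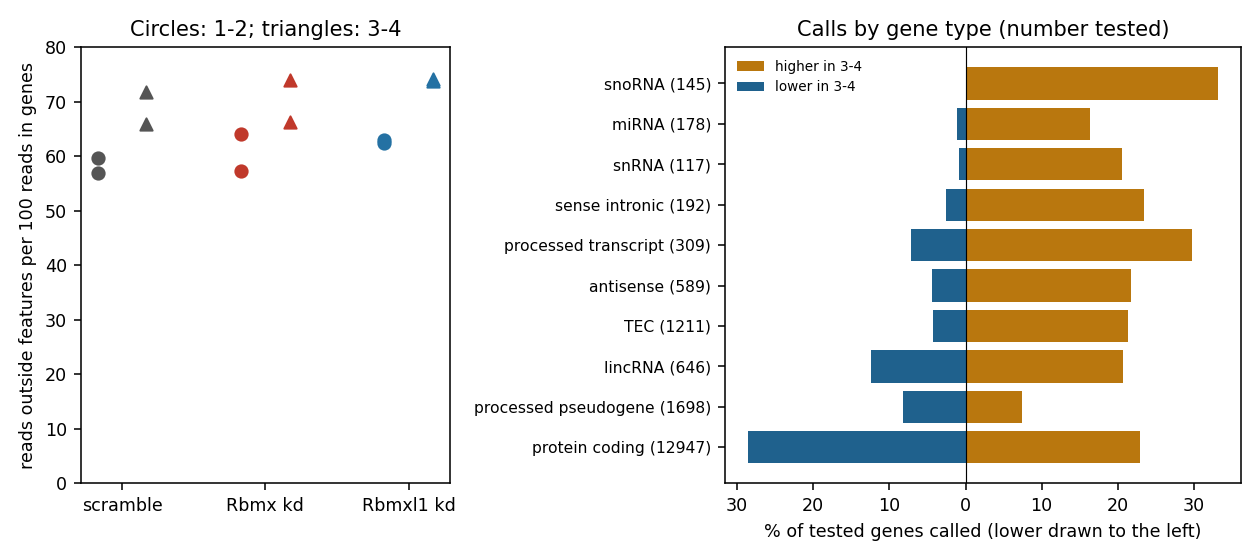
Left, reads outside features per 100 reads in genes in each library, by transfection (circles, replicates 1–2; triangles, replicates 3–4; axis from 0). Right, percent of tested genes called higher (to the right of 0) and lower (to the left) in set 3–4 by GENCODE gene type, with the number tested; 33.1% of small nucleolar RNA genes were called higher and 0 lower.

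Calls were unevenly spread over gene types. Of 12947 protein-coding genes, 2965 (22.9%) were called higher and 3697 (28.55%) lower. Of 145 small nucleolar RNA genes, which lie in introns and guide ribosomal RNA modification, 48 (33.1%) were called higher and 0 lower. Of 117 small nuclear RNA genes, 20.51% were called higher and 0.855% lower. Among 589 antisense genes the shares were 21.73% and 4.41%, and 40.61% and 9.09% among the 165 of them with a mean of at least 1 CPM. Genes that await experimental support as transcripts gave 21.39% and 4.29% of 1211, and 30.13% and 6.215% of the 531 with at least 1 CPM. Processed transcripts gave 29.77% and 7.12% of 309, and bidirectional promoter long noncoding RNAs 29.17% and 6.25% of 96. Among genes with at least 1 CPM, long intergenic noncoding RNAs gave 30.71% and 21.99% of 241, and processed pseudogenes were more often called lower than higher, 10.15% and 19.55% of 404. For comparison, 24.1% and 30.8% of the 11508 protein-coding genes with at least 1 CPM were called higher and lower. Protein-coding genes were split into 5 groups of equal size by intron span. The group with the longest introns, 58410 bases and more, had 15.06% called higher and 38.46% called lower, whereas the other groups had 22.67% to 26.26% higher and 24.3% to 29.24% lower. Small RNAs hosted in introns and antisense genes share sequence with other genes, so their counts are uncertain without a stated strand setting.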

How the data were processed

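The deposited files hold raw counts of reads per Ensembl gene, 1 file for each of 12 ribosome-depleted total RNA libraries. Per the submitters' processing notes the authors used STAR 2.5.3a, HTSeq 0.6.1p1, R 3.3.2 and DESeq2 1.16.1 with the build mm10, and per the labels the cells were Neuro-2a. The annotation and the strand setting are not given in the sources used here. The rows that name no gene (reads outside features, ambiguous or not unique) held 52.3% to 57.4% of each file's total and entered neither library sizes nor tests.

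Libraries were grouped by the replicate number in the title, a split proposed with a principal component analysis of these data known. Genes were kept by edgeR's filter over the 6 combinations of transfection and set (minimum count 10, minimum total 15), scaled by TMM and tested with edgeR 4.0.16 (quasi-likelihood test, R 4.3.3) for set with transfection as a covariate, p-values being adjusted by Benjamini-Hochberg over all 18548 genes. Standard errors are the log2 fold change over the root of the F statistic. A fit with 1 mean per transfection and set gave the contrast within each transfection and the interactions. CPM uses TMM-scaled library sizes. Measures of single libraries were compared by an exact permutation of the replicate sets within transfections. GENCODE M21 (GRCm38) supplied names, types and coordinates for 55141 of 55401 identifiers. The fit for set was also run on simulated counts of independent libraries in which a small share of genes changed. The simulation held no effect shared by a replicate number, so it cannot decide whether the library or the number is the unit.

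The genes named were the 5 given markers, up to 6 members of each list with a mean of at least 1 CPM, non-overlapping sets and the largest differences together with the first 2 listed members, the 12 largest differences each way with a mean of at least 5 CPM, the 3 smallest interaction p-values, the targeted genes and markers of other cells. Other members named as exceptions of a list, and the promoter examples, were chosen after their values were seen. Some genes that the rule names are not reported here. The members and the gene lists were chosen with earlier results of these data known.

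Same-numbered libraries of different transfections deviated together from their transfection's mean (r from 0.17 to 0.48 over 12 pairs), with a median of 0.32, a pattern that rests on the values alone. These correlations hold the difference between sets itself: libraries of the same set with different numbers correlated at 0.08 to 0.39, with a median of 0.29, and within sets limma 3.58.1 estimated a correlation of −0.0053 for a shared number. The test for set reported here has no replicate term, and the replicate block is an alternative. If the number rather than the library is the unit, each set holds 2. The alternatives were other scalings, filters and gene sets, DESeq2 1.42.0, the replicate block, sums by number, scramble alone, removal of a GC and length trend, and leaving out each library and each number.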

Additional observations from a re-analysis of the deposited data

Results flagged for a closer look

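Among 258 values tested in groups of 6 libraries, 11 had a highest or lowest library whose gap to the next was above Dixon's 95% critical share of the group's range, and chance alone gives about 1 in 20. In set 1–2, the Rbmxl1 knockdown library of replicate 2 was lowest for the sterol synthesis score (0.1534, next 0.2702), the neuronal score (0.0537, next 0.1297) and Ccnb1 (110.3 CPM, next 143.3). The Rbmx knockdown library of replicate 2 was highest for Fkbp11 (12.04 CPM, next 10.6) and for Ace (208.3 CPM, next 159.4). The Rbmxl1 knockdown library of replicate 1 was highest for the share of reads in small RNA genes (1.679%, next 1.127%).

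In set 3–4, the Rbmxl1 knockdown library of replicate 3 was lowest for the endoplasmic reticulum folding score (−0.0448, next 0.1927), highest for the interferon score (0.1141, next −0.3822) and highest for Id3 (34.83 CPM, next 24.17). The scramble library of replicate 3 was highest for Adssl1 (4.388 CPM, next 3.701) and for Mcf2l (17.72 CPM, next 13.57).

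For 2 list scores the sets separated in opposite directions in 2 transfections. The mitosis score was lower in set 3–4 in scramble (difference −0.2011) and higher in the Rbmx knockdown (0.07899), and the score of actin and SRF targets was lower in scramble (−0.07111) and higher in the Rbmxl1 knockdown (0.1736). These differences between transfections were not tested.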

How the results depend on the processing

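Of the recomputed counts of called genes and list medians, 915 stayed within their limits, 42 moved and 3 reversed. The matrix list reversed from −0.04 to 0.0033 in the scramble libraries alone, to 0.0014 without the Rbmxl1 knockdown library of replicate 4 and to 0.0173 with a GC and length trend removed. In scramble alone 4422 genes were called, 2064 higher and 2358 lower, and 1279 at 1.5-fold. Medians there were 0.35 for replication, 0.16 for G1/S, −0.23 for mitosis, −0.49 for hypoxia, −0.29 for YAP, −0.11 for cell contact, 0.026 for p53 and −0.025 for neuroblastoma regulators, and Zfp568 (−0.21) and 1810010H24Rik (0.31) reversed. With a mean of at least 1 CPM, 1496 genes were called at 1.5-fold, the matrix median was −0.0043 and the p53 median 0.052. With protein-coding nuclear genes alone, 1399 were called at 1.5-fold, and medians were 0.27 for ribosome biogenesis, 0.39 for ATF4 and −0.010 for matrix. With the trend removed, medians were 0.26 for nucleotide supply, 0.058 for oxidative phosphorylation and −0.15 for cell contact. Without the Rbmxl1 knockdown library of replicate 2 and the Rbmx knockdown library of replicate 1 together, a setting chosen after seeing the data, medians were 0.26 for nucleotide supply and −0.076 for matrix. Some other medians near 0 also changed sign. Actin targets (0.06) moved to −0.003 in scramble alone and to −0.0057 without the Rbmxl1 knockdown library of replicate 2. Immediate early genes (−0.01) changed sign in 5 settings, to at most 0.033. The cause was not tested.

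Leaving out 1 library or 1 number gave 5615 to 8187 called genes and 1594 to 2666 at 1.5-fold. Medians ranged from −0.34 to −0.12 for sterol uptake, 0.32 to 0.38 for ATF4, −0.14 to −0.031 for integrins, −0.083 to 0.0014 for matrix, −0.22 to −0.14 for cell contact and 0.046 to 0.12 for p53. Interaction calls ranged from 0 to 1 for Rbmx and from 0 to 47 for Rbmxl1. DESeq2 called 8158 genes and shared 7909 with the 8016. Of 186 named genes called, 29 lost the call in at least 1 alternative, 7 of them without a single library (1810010H24Rik, Cdh2, E2f1, Lamc1, Ncl, Rbmx and mt-Nd1).

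With the replicate block as a fixed term, 8096 genes were called, 7861 of them among the 8016, and with limma's random block 8073. The Rbmx interaction rose from 0 to 12 calls with the block and the Rbmxl1 interaction stayed at 0. Summed by number, 2 against 2, 6695 genes were called, 6546 of them among the 8016. A block within a single transfection was not run, since each number has 1 library there. Depth limits genes near 3 counts, which is at most 0.0696 CPM.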
